A study of Mus musculus with 10 samples.

Results

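The tubulin isotypes described here are 10 genes, 7 for beta-tubulin (Tubb2a, Tubb2b, Tubb3, Tubb4a, Tubb4b, Tubb5 and Tubb6) and 3 for alpha-tubulin (Tuba1a, Tuba1b and Tuba4a), out of 45906 gene rows in the count table. They were chosen by symbol, on the p-value of Tubb6: it had one of the smallest p-values between the 2 groups of mice, at rank 11 of the 17409 genes that passed the filter on low counts, and the other 9 were set beside it as brain and general isotypes. All 10 passed that filter. The contrast between the groups therefore chose the list, and the fold changes below describe these genes without testing them.

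RNA came from the immune cell fraction of microdissected substantia nigra and striatum of male C57BL/6 mice. In the A53T group, 5 mice had received an AAV1/2 virus (an adeno-associated viral vector) with A53T haSyn, the A53T mutant of human α-synuclein. In the EV group, 5 mice had received the AAV1/2 empty vector. Injection was at 10 to 12 weeks of age in both groups, and RNA was isolated 16 weeks after it, at 26 to 28 weeks. The sources used here do not name the promoter that drives the transgene, and the fraction was taken from a Percoll gradient with no cell sort named.

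Microtubules are hollow polymers of alpha- and beta-tubulin dimers. Vertebrate genomes carry several genes for each subunit, which encode nearly the same protein body and differ most in the C-terminal tail, where many motor proteins and modifying enzymes act. Neurons are rich in tubulin: Tubb3 is widely used as a neuronal marker, and Tubb2a, Tubb2b and Tuba1a are abundant in brain. Tubb5, Tubb4b and Tuba1b are made in most cell types, Tubb4a is prominent in myelinating oligodendrocytes, and Tubb6 is a minor isotype of mostly non-neuronal cells.

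Library totals lay between 12386305 and 21780086 counts. The mitochondrial ribosomal RNAs took 10.9 to 47.7% of the counts in A53T libraries and 33.4 to 50.9% in EV libraries. The transgene was read 1520, 2223, 10, 1397 and 1217 times in A53T replicates 1 to 5 and 0 or 1 times in each EV library. The library labelled A53T replicate 3 thus held very little of it. Markers of homeostatic microglia were detected in every library, and so were those of neurons, oligodendrocytes and astrocytes, so the fraction was not made of immune cells alone. The summed level of the 18 microglial markers ranged from 725 to 10018 CPM, the read count relative to the scaled library size, in A53T and from 796 to 4176 CPM in EV. That of the 15 neuronal markers ranged from 264 to 1730 CPM in A53T and from 941 to 1874 CPM in EV.

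How far reads of the isotypes can be told apart depends on their sequence. The first 4 codons of tubulin messages are shown first, because the nascent peptide they encode is recognised when cells lower their tubulin mRNA in response to free tubulin dimers, and because they separate the 2 families. The bases are the first 30 of the coding sequence in GENCODE transcripts of GRCm38, 5′ to 3′, with the first 12 in capitals.
Tubb2a: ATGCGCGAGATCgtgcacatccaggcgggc
Tubb2b: ATGCGAGAGATCgtgcacattcaggcgggc
Tubb3: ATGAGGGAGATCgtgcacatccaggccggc
Tubb4a: ATGCGGGAAATCgtgcacctgcaagccggt
Tubb4b: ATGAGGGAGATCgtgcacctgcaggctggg
Tubb5: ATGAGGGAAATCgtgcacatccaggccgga
Tuba1a: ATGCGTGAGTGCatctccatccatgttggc
Tuba1b: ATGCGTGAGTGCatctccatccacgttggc
Tuba4a: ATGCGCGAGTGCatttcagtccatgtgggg
Of these 12 bases, 8 were identical in all 7 beta-tubulin genes, Tubb6 included, and 11 were identical in the 3 alpha-tubulin genes. The sequence of Tubb6 is not shown here.

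Reads were 75 nt long, so an isotype can be counted apart from a copy only where 75 bases hold a difference. Over coding bases 397 to 471, Tubb2a and Tubb2b cannot be separated, and the stretch is shown with the bases at which Tubb3 differs from both in capitals.
Tubb2a: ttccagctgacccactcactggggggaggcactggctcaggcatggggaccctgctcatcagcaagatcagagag
Tubb2b: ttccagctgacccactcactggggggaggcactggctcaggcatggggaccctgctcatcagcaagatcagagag
Tubb3: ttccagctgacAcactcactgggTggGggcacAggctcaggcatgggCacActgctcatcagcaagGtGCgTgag
Tubb3 differed at 10 of the 75 bases.

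Over whole transcripts, Tubb3, Tubb4a, Tubb5 and Tubb6 shared no 75-base window with a transcript of another gene (0%). Tubb2a shared 43.2% of its windows, 40.2% with Tubb2b, and Tubb2b shared 32.2%. Tubb4b shared 40.9%, of which 33.7% was with a pseudogene, Tubb4b-ps1. Tuba1a shared 70.4% and Tuba1b 78.3%, with each other, with Tuba1c (39.9% of Tuba1a, 53.4% of Tuba1b) and with several predicted or unnamed loci, among them AC157548.1 (38.5% and 44.3%) and Gm17383 (38.5% and 37.9%). Tuba4a shared 47.2% of its transcript windows, all with the kinase gene Stk16, which overlaps it on the other strand, and 0% of its coding windows. By the gene spans of the count table, Stk16 overlaps it by 635 bases. There A630095N17Rik, with 1 read in all, overlaps it by 1167 bases on the same strand. Counts of Tubb2a, Tubb2b, Tubb4b, Tuba1a, Tuba1b and Tuba4a are therefore uncertain over these shared stretches. The sources used here do not say how the authors' counting treated shared reads and strand.

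The coding sequences were 96.5% identical between Tubb2a and Tubb2b and 98.3% between Tuba1a and Tuba1b. Tubb6 was closest to Tubb3, at 85.9%. The genes lie apart on GRCm38.p6 except for close neighbours on shared chromosomes. Tubb2a (chr13:34074278-34078008) and Tubb2b (chr13:34127008-34130354) lie on the minus strand, as do Tuba1a (chr15:98949847-98953501) and Tuba1b (chr15:98931429-98934390). Tubb6 lies on the plus strand of chromosome 18, from 67390731 to 67402749. Tubb3 lies on the plus strand of chromosome 8, from 123411553 to 123422015. These spans are the whole genes as the count table gives them, exons and introns together.

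Levels between isotypes were compared as CPM per kilobase of exon, averaged as a geometric mean over all 10 libraries. Tubb4a was highest at 123, followed by Tuba1a at 64.7, Tubb5 at 45.2 and Tubb2b at 38.1. Tuba1b was at 30.8, Tubb2a at 27.2, Tubb4b at 23.2, Tubb3 at 17.2 and Tuba4a at 13.7. Tuba4a was divided by a combined exon length of 4165 bases, while its transcript searched for shared windows held 2840. Its place in the order and its share of the alpha-tubulin reads below therefore depend on the length used. Tubb6 was lowest at 1.75. The isotype chosen for its group difference was thus the scarcest of the list, and the neuronal marker Tubb3 lay below the broadly made Tubb5.

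Of the 45 pairs, 40 differed in level within libraries (2-sided exact sign-flip permutation test over 10 libraries, Benjamini-Hochberg adjusted over the 45 pairs, smallest possible p 0.00195). Among the 9 pairs of neighbours in the order, 4 differed. Tubb4a was 1.90 times Tuba1a, higher in 10 of 10 libraries (exact adjusted p = 0.00303), and Tuba1a was 1.43 times Tubb5, also in 10 of 10 (exact adjusted p = 0.00303). Tuba1a shared 70.4% of its 75-base windows with other genes, and Tubb4a and Tubb5 shared 0%. Both differences therefore depend on how shared reads were counted, which is not known. Tuba4a was 7.81 times Tubb6, higher in 8 of 10 libraries (exact adjusted p = 0.0122), which did not pass in a sign test (exact adjusted p = 0.120). Tubb4b was 1.35 times Tubb3, higher in 7 of 10 libraries (exact adjusted p = 0.0439). That last difference did not pass without A53T replicate 2, 3, 4 or 5 or EV replicate 1, 2 or 3, where the exact adjusted p lay between 0.0686 and 0.0879, nor in a sign test (0.360) or with no division by length (0.114).

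The other 5 neighbours did not differ beyond their spread, which does not show that their levels are equal. The exact adjusted p was 0.294 for Tubb5 and Tubb2b, 0.0774 for Tubb2b and Tuba1b, 0.272 for Tuba1b and Tubb2a, 0.0557 for Tubb2a and Tubb4b, and 0.375 for Tubb3 and Tuba4a. Tubb2b and Tuba1b passed without A53T replicate 3 (0.0361) or 4 (0.0352), and Tubb2a and Tubb4b passed without A53T replicate 4 (0.0103). The order also rests on how shared reads were counted, which the sources used here do not say. Reads shared by near-copies such as Tubb2a and Tubb2b could have been assigned either way. If shared reads were left out, genes with shared windows would be read too low against Tubb3, Tubb4a, Tubb5 and Tubb6, which had none. Division by the whole exon length does not correct for that.

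**Figure D1:**
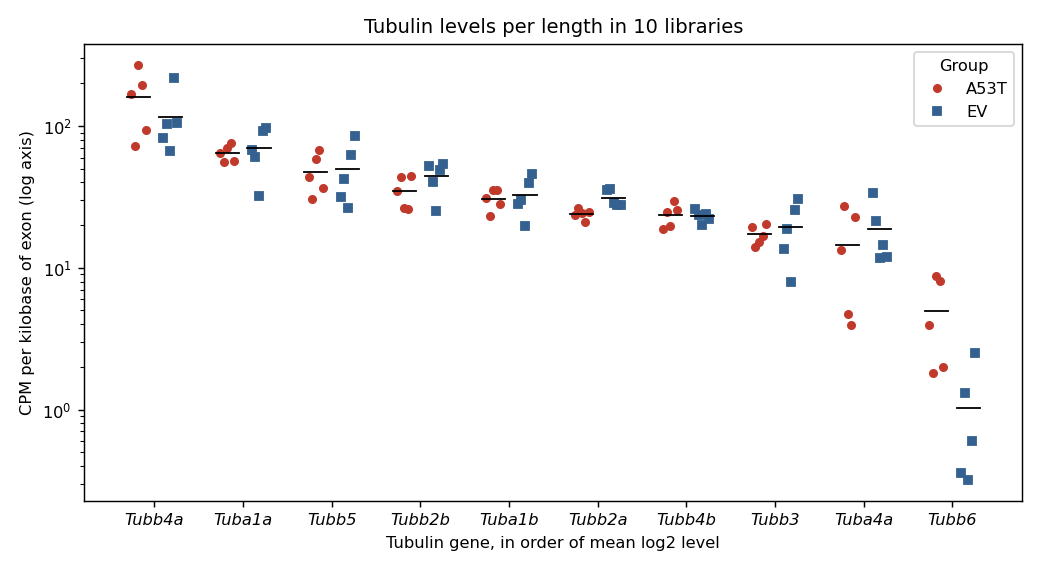
Level of each tubulin gene in CPM per kilobase of exon (log axis), with 1 point per library and a bar at the group mean, A53T left of EV (n = 5 each). Genes run from Tubb4a, with a geometric mean of 123 over all libraries, to Tubb6 at 1.75, and the 2 groups overlap in every gene but Tubb2a.

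Between the groups, no gene of the 17409 tested passed a Benjamini-Hochberg adjusted p of 0.05 in edgeR's quasi-likelihood test (0 called, 0%), and 378 (2.17%) had an unadjusted p under 0.05, of which 256 (1.47%) were higher in A53T; chance gives 870. The transgene was among the genes tested and was not called in this fit, although DESeq2 and the fit without A53T replicate 3 called it. A lack of calls here therefore does not show a lack of difference. The adjusted p of the 10 tubulins was between 0.957 and 0.984. At the unadjusted p, 2 of the 10 lay under 0.05, Tubb6 and Tubb2a. Because the list was drawn from this contrast, nothing is read from that share. The log2 fold change was positive in 3 of 10 and negative in 7, with a median of -0.10, against a median of 0.027 and 9200 positive over all 17409 genes.

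Tubb6, the class V beta-tubulin, was at 6.90, 3.17, 15.3, 14.1 and 3.48 CPM in A53T replicates 1 to 5, against 0.623, 2.27, 0.554, 1.04 and 4.396 CPM in EV replicates 1 to 5. These values rest on 133, 47, 336, 304 and 56 reads in A53T and on 9, 37, 7, 20 and 92 reads in EV. A53T replicates 3 and 4 were highest, and EV replicate 5 lay above A53T replicates 2 and 5, so the groups overlapped. The mean was 8.59 ± 5.77 CPM in A53T and 1.78 ± 1.62 CPM in EV (SD, n = 5 each), and the log2 fold change was 2.26 ± 0.67 (SE), with an edgeR adjusted p of 0.957. It was positive in every alternative run, from 1.33 without A53T replicates 3 and 4 to 2.92 without EV replicate 5. These runs reuse the libraries whose contrast chose Tubb6, so its sign in them is not a test. The lowest adjusted p among them was 0.513, in edgeR with no filter on low counts. The highest Tubb6 value came from the library with 10 transgene reads.

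Between the groups, the fold changes of microglial markers had the same sign as that of Tubb6, as did most markers of some other lists. All 18 microglial markers had a positive log2 fold change, with a median of 1.22 and none called, and none was at 0 in any library. The 5 tested markers of border-associated macrophages were positive too, with a median of 1.37. So were 3 of 4 tested ependymal and choroid plexus markers, with a median of 1.33. Of pericyte, smooth muscle and fibroblast markers 11 of 12 were positive (median 0.39), and of oligodendrocyte markers 10 of 12 (median 0.54). All 15 neuronal and all 12 astrocyte markers were negative, as were 8 of 12 endothelial markers, 4 of 5 of monocytes and neutrophils, and the 1 T cell marker tested. The log2 fold change of Tubb6 was 1.5 with the microglial minus the neuronal marker score in the fit as a covariate. In bulk RNA, fewer or more cells of a type and less or more RNA per cell cannot be told apart.

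Of the neuronal isotypes, Tubb3, the class III beta-tubulin, was at 34.0, 24.4, 26.6, 29.0 and 35.6 CPM in A53T replicates 1 to 5, against 23.8, 32.5, 13.8, 44.7 and 53.3 CPM in EV replicates 1 to 5. The A53T values all lay inside the EV range. The mean was 29.9 ± 4.75 CPM in A53T and 33.6 ± 15.8 CPM in EV (SD, n = 5 each), with a log2 fold change of -0.17 ± 0.32 (SE). All 15 neuronal markers had negative fold changes, with a median of -0.46, and none was called. The part of neuronal RNA in the Tubb3 values was not tested.

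Tubb2a, a class II beta-tubulin abundant in brain, was at 37.8, 42.3, 39.0, 34.0 and 40.1 CPM in A53T replicates 1 to 5, against 57.0, 58.0, 45.9, 44.4 and 44.5 CPM in EV replicates 1 to 5. Every A53T library lay below every EV library. Of all genes tested, 75 (0.431%) had groups that did not overlap, 25 of them lower in A53T (0.144%), and Tubb2a was the only tubulin of the 10 among them. The mean was 38.7 ± 3.07 CPM in A53T and 49.98 ± 6.91 CPM in EV (SD, n = 5 each), with a log2 fold change of -0.37 ± 0.16 (SE) and an edgeR adjusted p of 0.957.

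Tubb2b, the near-identical class II neighbour that migrating neurons of the developing cortex need, was at 67.0, 83.7, 50.7, 50.1 and 85.0 CPM in A53T replicates 1 to 5, against 101, 76.9, 48.2, 94.4 and 104 CPM in EV replicates 1 to 5. Its groups overlapped, with EV replicate 3 the lowest library of all. Its log2 fold change was -0.34 ± 0.25 (SE).

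Tubb4a, the class IVa isotype whose mutation in humans causes a hypomyelinating disease, was at 344, 149, 556, 398 and 191 CPM in A53T replicates 1 to 5, against 168, 212, 136, 449 and 215 CPM in EV replicates 1 to 5. A53T replicate 3 and EV replicate 4 were highest and the groups overlapped. The log2 fold change was 0.47 ± 0.42 (SE), and it was -0.049 without A53T replicates 3 and 4. Of the 12 oligodendrocyte markers, 10 had positive fold changes, with a median of 0.54 and none called, and their summed level ranged from 4461 to 6859 CPM in A53T and from 5151 to 6174 CPM in EV.

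Of the broadly made isotypes, Tubb5, the class I beta-tubulin, was at 116, 80.3, 154, 179 and 96.6 CPM in A53T replicates 1 to 5, against 83.2, 111, 69.6, 165 and 225 CPM in EV replicates 1 to 5. Both groups held low and high libraries, and the log2 fold change of -0.06 ± 0.35 (SE) changed sign with the libraries used. Tubb4b, the class IVb isotype also used in cilia, varied little: it ranged from 29.96 to 47.1 CPM in A53T and from 32.3 to 41.6 CPM in EV, with a log2 fold change of 0.03 ± 0.17 (SE).

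Among the alpha-tubulins, Tuba1a, the main isotype of young neurons, was at 102, 88.9, 111, 120 and 90.7 CPM in A53T replicates 1 to 5, against 108, 96.7, 51.2, 146 and 154 CPM in EV replicates 1 to 5. Tuba1b, its broadly made copy, was at 48.96, 36.2, 55.1, 55.6 and 44.2 CPM in A53T replicates 1 to 5, against 44.2, 47.2, 30.7, 61.8 and 71.5 CPM in EV replicates 1 to 5. In both genes EV replicates 4 and 5 were highest and EV replicate 3 lowest, as in Tubb3. The log2 fold changes were -0.11 ± 0.27 for Tuba1a and -0.09 ± 0.24 for Tuba1b (SE).

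Tuba4a, the alpha-tubulin gene that encodes no C-terminal tyrosine, was at 55.5, 114, 19.7, 16.6 and 94.9 CPM in A53T replicates 1 to 5, against 141, 88.9, 49.0, 60.2 and 49.7 CPM in EV replicates 1 to 5. A53T replicates 3 and 4, which were highest in Tubb6, were lowest here. The log2 fold change was -0.37 ± 0.53 (SE), and it was 0.18 without those 2 libraries.

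**Figure D2:**
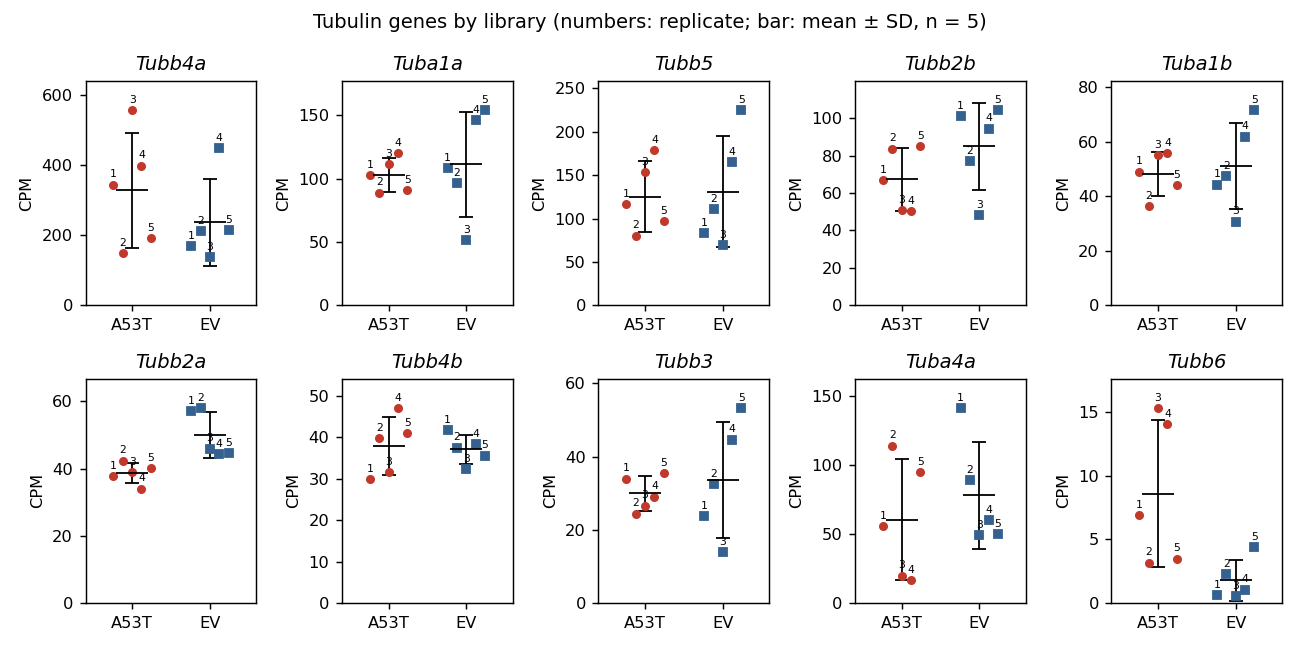
CPM of each tubulin gene in the A53T libraries (left of each panel) and the EV libraries (right), with the replicate number at each point and the mean ± SD as a bar (n = 5 each). Tubb6 is highest in A53T replicates 3 and 4, at 15.3 and 14.1 CPM, where Tuba4a is lowest, and the A53T points of Tubb2a all lie below its EV points.

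The spread within groups differed widely between isotypes. The SD of log2 CPM with group means removed was 1.12 for Tubb6 and 1.01 for Tuba4a, and it was 0.72 for Tubb4a, 0.60 for Tubb5 and 0.57 for Tubb3. It was 0.21 for Tubb4b and 0.16 for Tubb2a, against a median of 0.62 over all genes tested, and 98.4% of genes had at least the spread of Tubb2a. Tubb2a and Tubb4b were thus among the genes of smallest spread in these libraries. The genes compared were not matched for level, and the part of read depth in these spreads was not tested. Tubb6 stood at the other end of the list, although 20.8% of all genes varied at least as much.

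As a share of the summed reads per kilobase of the 7 beta-tubulin genes, Tubb6 made up 1.27, 0.851, 2.07, 2.22 and 0.808% in A53T replicates 1 to 5, against 0.148, 0.492, 0.182, 0.146 and 0.771% in EV replicates 1 to 5. On this scale every A53T library lay above every EV library, with means of 1.44 ± 0.667% in A53T and 0.347 ± 0.277% in EV (SD, n = 5 each). Of the 10 tubulins it was the only 1 whose groups did not overlap in its share, while in CPM its groups overlapped. The groups of Tubb2a overlapped in its share, at 5.72 to 12.3% in A53T and 6.77 to 16.3% in EV. A pool share has no value for genes outside the pool, so no share over all genes can be set beside this. The gap between the groups was narrow for Tubb6, at 0.808% in A53T replicate 5 against 0.771% in EV replicate 5. The share comes from the contrast that chose Tubb6 and was not tested.

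Tubb4a held the largest share of the beta-tubulin pool in 10 of 10 libraries, at 48.6 ± 12.4% in A53T and 39.3 ± 8.48% in EV (SD, n = 5 each). Tubb5 followed with 15.1 ± 2.03% in A53T and 17.05 ± 5.11% in EV, and the neuronal Tubb3 held 5.86 ± 1.81% in A53T and 6.58 ± 1.81% in EV. Among the 3 alpha-tubulin genes, Tuba1a held 58.7 ± 6.04% in A53T and 56.5 ± 5.88% in EV. Tuba4a held 13.4 ± 9.92% in A53T and 16.2 ± 7.44% in EV. Groups overlapped in these genes, and in each the difference of the means was smaller than the larger SD. The size of each share also depends on how shared reads were counted.

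**Figure D3:**
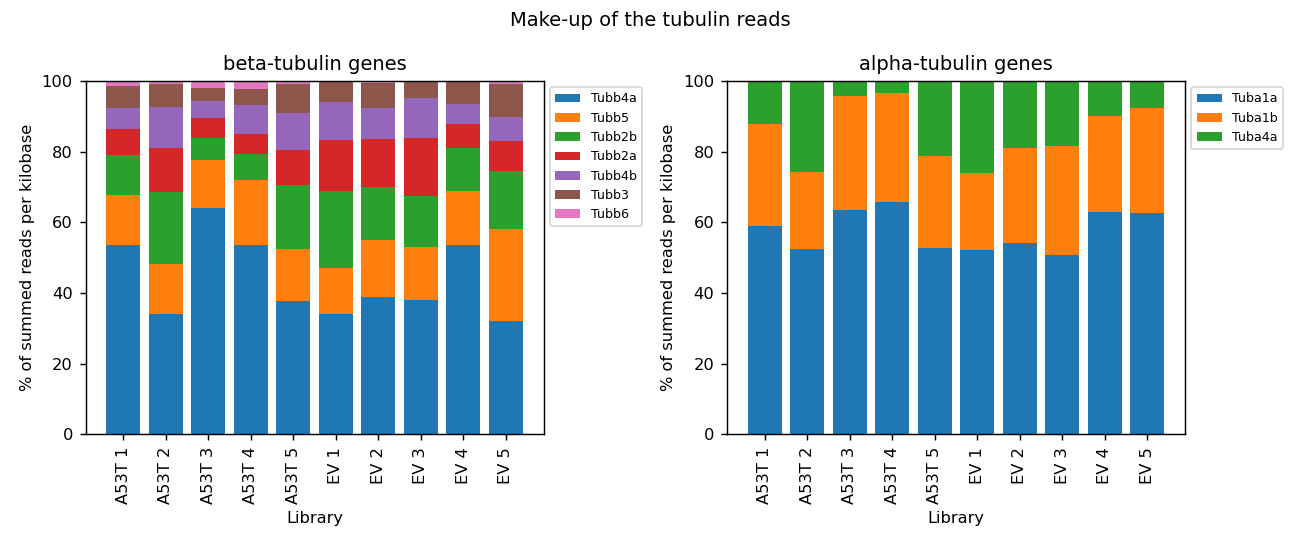
Share of each gene in the summed reads per kilobase of the beta-tubulin (left) and alpha-tubulin genes (right), in percent, with 1 stacked bar per library, A53T libraries left of EV libraries. Tubb4a takes 32.0 to 64.0% of the beta pool, while Tubb6 is a thin top band of at most 2.22%.

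Which cells the tubulin reads went with was examined with marker scores, each the mean log2 CPM of a marker list that holds no tubulin. Group means were removed from both measures, so that the contrast that chose the genes did not enter. Of 60 relations (10 genes and 6 scores), 12 passed an adjusted p of 0.05 by Pearson's r and 9 by Spearman's rho, with 2-sided exact permutation over all arrangements within groups and Benjamini-Hochberg adjustment over the 60. Scores and genes were scaled to the same library sizes, and the part of this in the relations was not tested. Several scores also moved together or in opposite directions. A53T replicate 4 had the lowest neuronal (3.57) and astrocyte (5.82) scores. It also had the highest scores of microglia (8.62) and of pericytes, smooth muscle and fibroblasts (4.23). Relations of a gene to several scores are therefore not separate results, and which cells its reads came from was not tested. Many other genes followed these scores: the share of all 17409 genes with an r at least as far from 0, of either sign, lay between 0.362 and 35.5% for the 12 relations. With group means kept, 5 of the 12 did not pass. None of the 60 passed without A53T replicate 2, while 27 passed without EV replicate 3, with 2880 arrangements in each case. None passed without A53T replicates 3 and 4, where fewer arrangements remain.

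Tubb6 followed the microglial score with r = 0.84 (exact permutation p = 0.00493, adjusted 0.0329) and rho = 0.85 (p = 0.00611, adjusted 0.0407). Leaving out A53T replicates 2 and 4, whose scores lay farthest from the median, left r at 0.84. Within the groups, r was 0.95 over the 5 A53T and 0.76 over the 5 EV libraries. The share of all 17409 genes at least as strongly related to this score, in either direction, was 18.9%. With 1 library left out, the adjusted p passed in 3 of 10 cases, while r stayed between 0.81 and 0.89. With group means kept, r was 0.75 and did not pass (permutation, adjusted p = 0.0643).

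Tubb5 followed the microglial score too, with r = 0.86 (exact permutation p = 0.000556, adjusted 0.0133) and rho = 0.87 (p = 0.00104, adjusted 0.025). It ran against the neuronal score with r = -0.71 (exact permutation p = 0.00757, adjusted 0.0378), where rho of -0.73 did not pass (adjusted p = 0.0583). Without the 2 farthest libraries these values of r were 0.88 and -0.66. At least as strong a relation of either sign was found in 14.5% of all genes for the microglial score and in 35.5% for the neuronal score. With 1 library left out, the relation to microglia passed in 9 of 10 cases and that to neurons in 2 of 10, and with group means kept the relation to neurons did not pass (permutation, adjusted p = 0.113). Tuba1b followed the microglial score with r = 0.77 (exact permutation p = 0.00285, adjusted 0.0244) and rho = 0.83 (p = 0.00125, adjusted 0.025), and r = 0.75 without the 2 farthest libraries. It passed in 3 of 10 cases with 1 library left out and not with group means kept (permutation, adjusted p = 0.086), and 29.4% of all genes were related as strongly.

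Tubb4a followed the oligodendrocyte score with r = 0.95 (exact permutation p = 0.000903, adjusted 0.0133) and rho = 0.90 (p = 0.00354, adjusted 0.0365). Without the 2 farthest libraries r was 0.88, and 0.362% of all genes were related to this score at least as strongly, in either direction. It passed in 8 of 10 cases with 1 library left out. Tubb4a also followed the microglial score, with r = 0.84 (exact permutation p = 0.00674, adjusted 0.0367) and r = 0.79 without the 2 farthest libraries. There rho was 0.84 and just missed the threshold (permutation p = 0.0084, adjusted 0.0504). That relation passed in 3 of 10 cases with 1 library left out, and 18.7% of all genes were related to the microglial score as strongly.

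Tuba4a followed the neuronal score with r = 0.94 (exact permutation p = 0.00111, adjusted 0.0133) and rho = 0.92 (p = 0.00486, adjusted 0.0365). It followed the astrocyte score with r = 0.97 (exact permutation p = 0.000417, adjusted 0.0133) and rho = 0.94 (p = 0.00278, adjusted 0.0365). It ran against the microglial score (r = -0.87, exact permutation p = 0.00604, adjusted 0.0363; rho = -0.87, adjusted 0.0583). It also ran against the score of pericytes, smooth muscle and fibroblasts (r = -0.90, exact permutation p = 0.000903, adjusted 0.0133; rho = -0.94, adjusted 0.025). Without the 2 farthest libraries r was 0.87, 0.97, -0.80 and -0.82 for these scores in turn. With 1 library left out, the adjusted p passed in 6, 9, 2 and 8 of 10 cases in the same order, and 4.88, 1.84, 12.8 and 2.62% of all genes were related to these scores at least as strongly, in either direction. Reads of the overlapping Stk16 could have entered these values.

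Tubb2a followed the neuronal score with r = 0.72 (exact permutation p = 0.0034, adjusted 0.0255) and rho = 0.79 (p = 0.00389, adjusted 0.0365). It followed the astrocyte score with r = 0.75 (exact permutation p = 0.00188, adjusted 0.0188) and rho = 0.79 (p = 0.00431, adjusted 0.0365). Without the 2 farthest libraries r was 0.87 and 0.69, and 34.1 and 34.9% of all genes were related to these scores at least as strongly, in either direction. Each relation passed in 5 of 10 cases with 1 library left out. With group means kept neither passed (permutation, adjusted p = 0.0643 and 0.086).

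The neuronal marker Tubb3 showed no relation to the neuronal score that passed the test, with r = -0.10 (exact permutation p = 0.674, adjusted 0.790) and rho = -0.16 (p = 0.621, adjusted 0.709). Without the 2 farthest libraries r was -0.39, and 91.7% of all genes had a stronger or equal relation of either sign. No isotype passed with the endothelial score.

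**Figure D4:**
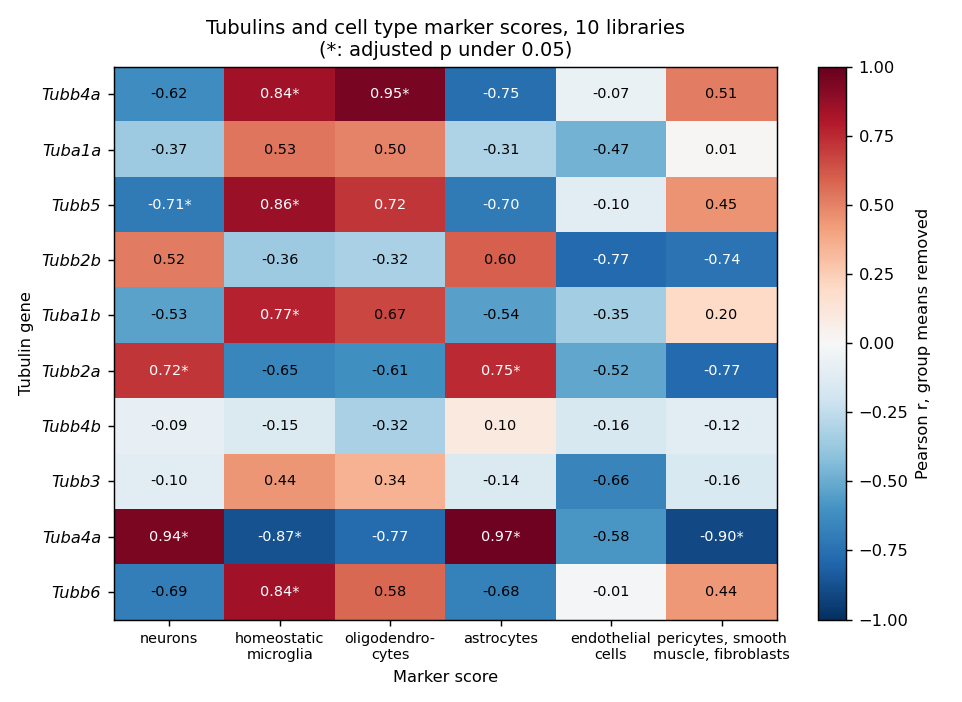
Pearson r between log2 CPM of each tubulin gene (rows) and 6 marker scores (columns) over the 10 libraries with group means removed, with a star where the adjusted permutation p is under 0.05. The 12 starred cells include Tubb4a with oligodendrocytes at 0.95 and Tuba4a with neurons at 0.94, while Tubb3 with neurons is at -0.10.

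**Figure D5:**
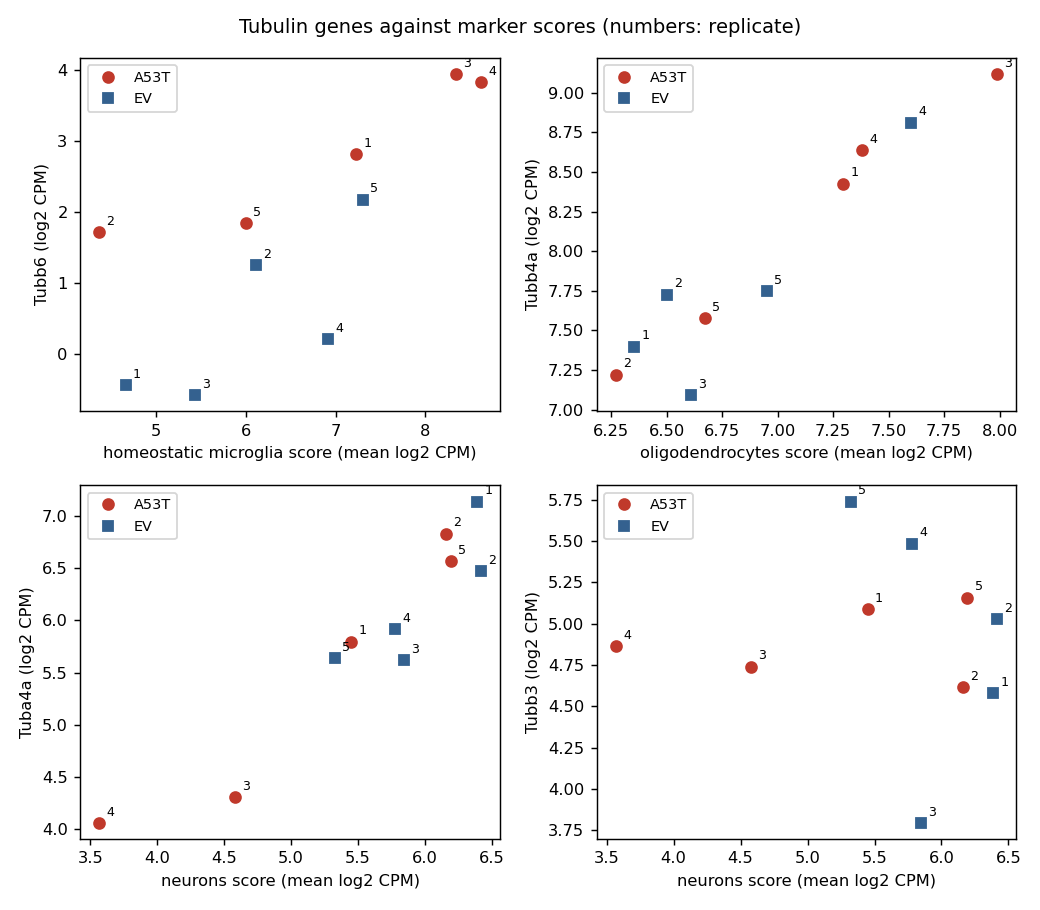
Log2 CPM of Tubb6, Tubb4a, Tuba4a and Tubb3 against a marker score (mean log2 CPM), with 1 point per library, its replicate number beside it, and A53T and EV drawn apart. Tubb6 rises with the microglial score in both groups (r = 0.95 in A53T, 0.76 in EV), and Tubb3 shows no trend with the neuronal score.

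The genes most like 3 isotypes were sought among 12861 genes whose average log2 CPM reached 1, by Pearson's r over the 10 libraries with group means removed. Nearest to Tubb6 were Ift140 (0.98), Tor1b (0.98), Sdcbp (0.96), Tnpo1 (0.95) and Hist1h4n (0.95). Nearest to Tubb3 were Trim67 (0.96), H2c8 (0.94), Chaf1a (0.94), Zfp277 (0.93) and Bcat1 (0.93). Nearest to Tubb5 were Mrc2, Cnppd1, Rrm1 and Spidr (0.98 each) and H3c7 (0.96). Rrm1 encodes a subunit of ribonucleotide reductase and Chaf1a a histone chaperone of DNA replication. These are the highest of very many values over few libraries and carry no test.

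The other genes of the tubulin system were described from lists of the family and its partners, each list in the same fit. None had a gene past the adjusted threshold in either direction. Of the 10 other tubulins, 6 could be tested and 2 of these were positive, with a median log2 fold change of -0.06. The values ran from -0.87 to 2.16, so the highest was near that of Tubb6. Tuba1c, a further copy of the Tuba1 group, was the highest of them at 34.6 ± 8.18 CPM in A53T and 35.8 ± 10.2 CPM in EV (SD, n = 5 each). The gamma-tubulin gene Tubg2, for the subunit that nucleates microtubules, was at 6.24 ± 4.13 CPM in A53T and 11.4 ± 5.70 CPM in EV, and Tubg1 was at 7.15 ± 0.736 CPM in A53T and 7.48 ± 2.92 CPM in EV.

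Of 22 genes for folding cofactors, prefoldin and the chaperonin that fold new tubulin, 11 were positive, with a median of -0.00. Tcp1 and Cct2, chaperonin subunits, had log2 fold changes of -0.14 ± 0.17 and 0.08 ± 0.21 (SE), and the prefoldin subunit Pfdn5 had -0.30 ± 0.26. Of 20 tubulin modifying enzymes 19 were tested and 8 were positive, with a median of -0.08. The deglutamylase Agtpbp1 had a log2 fold change of -0.40 ± 0.44, the glutamylase Ttll7 0.12 ± 0.19 and the deacetylase Sirt2 0.20 ± 0.19 (SE).

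Of 30 microtubule-associated proteins, 12 were positive, with a median of -0.15. The neuronal proteins Map1a, Map2 and Map1b were the highest and had log2 fold changes of -0.39 ± 0.63, -0.50 ± 0.58 and -0.40 ± 0.44 (SE). Map2 ranged from 163 to 1959 CPM in A53T and from 995 to 1930 CPM in EV. None of these lists had a median as far from that of all genes (0.027) as the neuronal (-0.46) or microglial (1.22) markers.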

How the data were processed

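Single reads of 75 nt were sequenced, per the labels' protocols, after a stranded library preparation (0.5 ng of RNA, 5 plus 15 PCR cycles). The authors deposited raw read counts per gene and a table of rlog values on a log2 scale over the same 45906 rows. Builds mm10 and GRCm38.p6 are listed, without settings, in the submitters' processing notes, as are featureCounts 1.6.4, STAR 2.7.2b, DESeq2 1.24.0 and cutadapt 2.5. The sources used here do not say whether counting used the strand.

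The counts were fitted with edgeR 4.0.16 in R 4.3.3 (quasi-likelihood F test, robust dispersions, TMM normalization, edgeR's default filter), adjusted by Benjamini and Hochberg over 17409 genes at 0.05. CPM uses TMM-scaled library sizes. A count of 0 allows up to 3 reads, or 0.137 to 0.238 CPM, and covers counting error only; all 10 tubulins were above it in every library. Levels were compared as log2 reads per kilobase with 0.5 read added, and marker relations as log2 CPM with a prior count of 2. Alternatives used DESeq2 1.42.0, limma 3.58.1, other size factors and filters, a replicate block, a covariate and libraries left out. The fits were tested on simulated data. Library counts were compared and no 2 libraries held the same values.

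The members, lists and tests were chosen with earlier results of these data known. The rule named all 10 tubulins, the 3 genes of highest level in each pathway list, and the 5 genes most like Tubb6, Tubb3 and Tubb5. Each library is 1 mouse (5 per group), and p-values measure the spread between these mice. Shared sequence was searched in GENCODE M21 transcripts of GRCm38, and chromosomes came from a RefSeq table with the same gene starts and ends.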

Additional observations from a re-analysis of the deposited data

How the results depend on the processing

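The count of genes called was 0 in edgeR and also with limma-voom, limma on rlog values, RLE size factors, either other filter, ribosomal RNA rows removed and the covariate. It was 2 with DESeq2, 1 without A53T replicates 3 and 4, and 0 to 1 without 1 library, and no tubulin was among them. Same-numbered libraries did not deviate together (r from -0.37 to 0.31, and no library followed its own number best). These values cannot show whether the replicate numbers pair the samples. With the replicate block 1 gene was called, the transgene, and Tubb5 had a log2 fold change of 0.014. Signs of small fold changes turned in other fits. Tubb4a was at -0.044 with the covariate and -0.049 without A53T replicates 3 and 4, and Tuba4a at 0.0078 and 0.18. Tubb4b was at -0.0026 with DESeq2, -0.17 with voom, -0.011 on rlog values, -0.00094 with RLE and -0.0062 without A53T replicates 3 and 4. Without 1 library the log2 fold change ran from -0.41 to 0.060 for Tubb3, -0.057 to 0.11 for Tubb4b, -0.27 to 0.22 for Tubb5, -0.34 to 0.033 for Tuba1a and -0.27 to 0.063 for Tuba1b. Of the level order, 38 to 40 pairs differed without 1 library, 34 with no division by length and 34 with a sign test. With no division by length the log2 ratio of Tuba1a to Tubb5 was -0.22 and that of Tubb3 to Tuba4a -0.93; without A53T replicates 3 and 4 that of Tubb5 to Tubb2b was -0.0089 and that of Tubb3 to Tuba4a -0.055. Of the marker relations, 9 passed with group means kept. Without 1 library, 0 (A53T replicate 2 left out) to 27 (EV replicate 3 left out) passed. EV replicate 3 had the fewest counts of all libraries, 12386305. None passed without A53T replicates 3 and 4 or without the 2 farthest libraries, where fewer arrangements remain. Without 1 library, r of Tubb3 with the neuronal score ran from -0.23 to 0.076. The cause of these changes was not tested. Depth limits Tubb6 most, with 7 to 92 reads in EV libraries.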

Other observations

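Tubb1, the beta-tubulin of platelets and megakaryocytes, had 32, 0, 37, 123 and 0 reads in A53T replicates 1 to 5, against 0, 8, 9, 10 and 6 reads in EV replicates 1 to 5. Of its 225 reads, 123 came from A53T replicate 4. The testis isotypes Tuba3a and Tuba3b had 0 reads in all 10 libraries, Tuba8 had 59 and Tubal3 had 8, all in a single library. Markers of T cells, monocytes and neutrophils were mostly scarce: 1 of 6 T cell markers could be tested, and the 5 tested markers of monocytes and neutrophils summed to 0.876 to 19.6 CPM in A53T and 2.01 to 24.7 CPM in EV.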
